A study of Mus musculus with 36 samples.

Results

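The effect of intrauterine hyperglycemia (IUHG) on primordial germ cells (PGCs) of the mouse fetus at E12.5 (embryonic days after mating) was read from 6 of the 36 RNA-seq libraries of the series, 3 with a control title and 3 with an IUHG title. Of 57126 gene IDs, 13770 had a mean level of at least 1 TPM (transcripts per 1000000) in either group and were tested. The study asks how hyperglycemia of the mother affects germ cells of the fetus. In the IUHG group the dams were injected at E3.5 with 120 mg/kg streptozotocin (STZ), which kills the insulin-producing cells of the pancreas, and were included if their blood glucose at E6.5 exceeded 14 mM. The control group carries the label of a control treatment. Both groups are labelled wild type, with the sex not determined, and in both the germ cells came from fetuses of females mated with Oct4-EGFP males and were sorted by EGFP from digested gonads, several fetuses to a sample. The transgene is therefore shared by both groups, and the sex of the fetuses pooled in a sample is not given.

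PGCs are the precursors of eggs and sperm. Around the time sampled here they have reached the genital ridge, have lost most of their DNA methylation, still express genes of pluripotency and switch on germline genes such as *Dazl* and *Ddx4*. Soon afterwards female germ cells enter meiosis, for which BMP and retinoic acid (RA) signals are known inducers, while male germ cells pass through NODAL signalling and stop dividing.

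The 6 libraries carried the label's markers at high level. *Dppa3*, a PGC gene also called *Stella*, had 5174, 5922 and 5509 TPM in control samples 1 to 3 and 4616, 4981 and 5046 TPM in IUHG samples 1 to 3. *Dazl*, an RNA-binding protein of germ cells, lay between 1449.8 and 1519 TPM in control and between 1166 and 1372 TPM in IUHG samples. Of 9 erythroid markers none reached the level needed for testing, and their summed level was 0.914 to 2.90 TPM in control and 0.918 to 1.01 TPM in IUHG samples. Libraries correlated at 0.985 to 0.987 within the control group, 0.982 to 0.987 within the IUHG group and 0.973 to 0.983 between groups (Pearson's r over genes on log2(TPM + 1), a description of genes within libraries). No library stood apart. Aligned bases ranged from 7.35 to 8.32 gigabases per library, and the number of reads behind a gene is not known from these units. The titles call the samples of a group biological replicates without saying whether the pools came from separate dams, so p-values measure the spread between these samples, which may be technical.

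The study's methods name a fold over 2 and a P under 0.01 for PGCs, without saying that P was adjusted. Here an adjusted p under 0.01 was required with a change over 2-fold on log2(TPM + 1) (limma with Benjamini-Hochberg adjustment), and 17 genes rose (0.123% of those tested) and 17 fell (0.123%). These 34 are called DEGs below. With the threshold at an adjusted p of 0.05 and no minimum fold, 121 genes rose (0.879%) and 96 fell (0.697%), and "rose" and "fell" refer to this rule. These shares are the baseline for counts of calls below. At the unadjusted p, 71 genes were higher and 84 lower by over 2-fold. The balance of rises and falls turned with the scaling, to 109 against 131 with FPKM, 110 against 123 with median-of-ratios scaling and 112 against 115 with quantile normalization. Of all tested genes, called or not, 7681 (55.8%) were higher and 6089 lower in IUHG, the baseline for counts of direction below. The median log2 change of all tested genes was 0.04 with TPM and -0.0097 with FPKM. The absolute log2 change of the 217 called genes had a median of 0.94, and 88 of them changed over 2-fold. In all 217 the 3 IUHG values lay outside the range of the 3 control values, as in 22.4% of all tested genes. Each group has only 3 libraries, and the count of DEGs was 12, 10 and 6 without control samples 1, 2 and 3, 7 and 15 without IUHG samples 1 and 2, and 34 without IUHG sample 3. Counts at an adjusted p under 0.05 were 66, 42 and 37 without those control samples and 79, 105 and 291 without those IUHG samples. Of the 71 named genes below that were called, 29 kept the call in each of these 6 fits, 5 lost it in 1 fit and 37 in 2 or more.

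**Figure D1:**
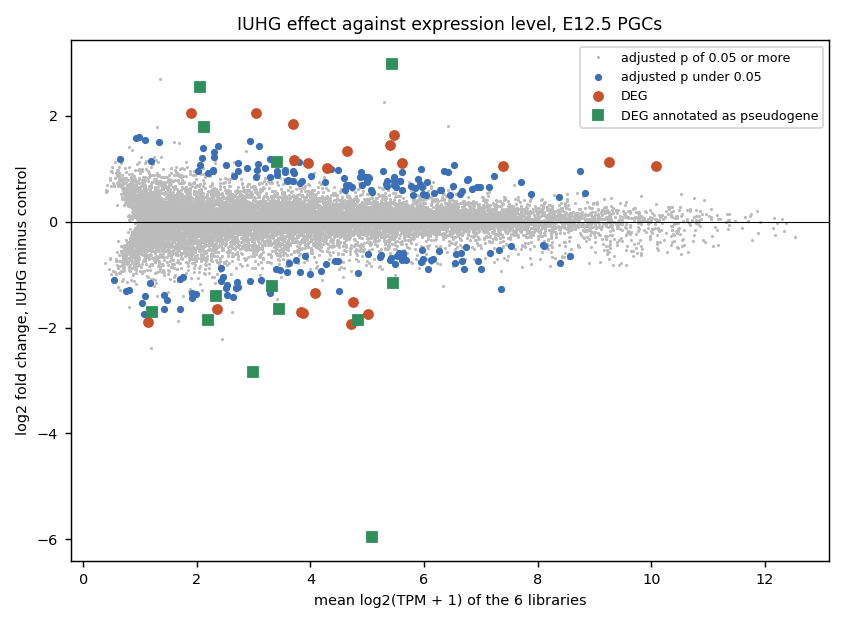
Log2 fold change (IUHG minus control, vertical axis) of each of the 13770 tested genes against its mean log2(TPM + 1) in the 6 libraries (horizontal axis). Blue circles are genes with an adjusted p under 0.05 in limma, red circles DEGs and green squares the 13 DEGs annotated as pseudogenes, among them *Rps2-ps13* at -5.95 and *Gm8730* at 2.98.

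A measure that stands beside all other results is the level of Y-linked transcripts. The summed level of *Eif2s3y*, *Ddx3y*, *Kdm5d* and *Uty*, genes that only cells with a Y chromosome carry, was 210.1, 194 and 212 TPM in the control samples and 148, 129.6 and 154 TPM in the IUHG samples. The groups did not overlap, and the IUHG mean of 144 ± 12.54 TPM was 69.9% of the control mean of 205 ± 9.95 TPM (SD, n = 3 each). An exact two-sided permutation test of the difference of -61.7 TPM gave p = 0.1, the smallest that 20 assignments allow. *Eif2s3y* made up most of the sum and fell by 0.53 on the log2 scale (limma adjusted p = 0.04), while the other 3 genes were lower by 0.07 to 0.32 with adjusted p of 0.46 to 0.90. The call of *Eif2s3y* was lost on leaving out any 1 of the control samples or IUHG sample 1 or 2 (adjusted p up to 0.189). *Xist*, the RNA that silences an X chromosome in female somatic cells, did not exceed 0.226 TPM in any of the 6 libraries. It was also near 0 in control PGCs of E13.5, with means of 0.319 TPM in female and 0.164 TPM in male cells. In E13.5 male PGCs, separated by sex, the Y-linked sum was 167 ± 16.0 TPM in control and 118 ± 1.79 TPM in IUHG libraries. In E16.5 male PGCs it went the other way, at 86.3 ± 11.0 and 118 ± 3.78 TPM. *Eif2s3y* changed by -0.51 in the former and 0.47 in the latter (limma adjusted p of 5.2e-04 and 0.030). Fewer male cells and less RNA of Y-linked genes per male cell cannot be told apart in bulk samples, and the same holds for every cell type and gene below.

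The *Rhox* genes form a cluster of homeobox genes on the X chromosome, several of them expressed in germ cells. Of 42 listed members 26 were tested, 5 rose (19.2%) and none fell, beside 0.879% and 0.697% of all tested genes. A higher mean in IUHG was seen in 25 of the 26, beside 55.8% of all tested genes. Their median log2 change was 0.43, beside 0.04 over all tested genes, and the summed level went from 2990.4 to 3281 TPM in control samples to 4602 to 5887 TPM in IUHG samples. The median was 0.36 with FPKM, 0.39 with median-of-ratios scaling and 0.38 with quantile normalization. The family was added as a group after its values had been seen. Members of the *Rhox2* and *Rhox4* groups are near-identical copies, so their values are uncertain where reads can be shared.

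Within the family, *Rhox6* (chrX:36915787-36918734, plus strand) had 401, 430.1 and 417 TPM in control samples and 760.3, 861 and 1142 TPM in IUHG samples. It rose by 1.12 ± 0.14 on the log2 scale (SE, limma adjusted p = 0.0058), from a mean of 416 ± 14.8 to 921 ± 198 TPM. *Rhox9* (chrX:36987974-36990647, minus strand), its neighbour, had 747, 759 and 756 TPM in control and 1331, 1514 and 1924 TPM in IUHG samples, and rose by 1.06 ± 0.13 (adjusted p = 0.0058). In both genes IUHG sample 3 was the highest and the control samples hardly differed. *Rhox13* (chrX:37210096-37218844, plus strand) went from 9.01, 9.54 and 10.0 TPM to 21.8, 19.0 and 24.6 TPM, a rise of 1.11 ± 0.14 (adjusted p = 0.0072). *Rhox4c* rose by 1.02 and *Rhox2f* by 1.44, the latter at an adjusted p just under the threshold and at 0.052 with FPKM, 0.063 with median-of-ratios scaling and 0.065 with quantile normalization. *Rhox5*, the founding member and the most abundant one here, had 1560.3, 1806 and 1746 TPM in control and 2163, 2167 and 2438 TPM in IUHG samples, a difference of 0.41 that did not pass (adjusted p = 0.1). *Rhox10* was the only tested member with a lower mean in IUHG, with 13.2, 14.8 and 17.5 TPM in control and 9.70, 4.47 and 7.00 TPM in IUHG samples (adjusted p = 0.067, and 0.044 with FPKM). Without control sample 3 the adjusted p of *Rhox6* was 0.0571 and that of *Rhox9* 0.0594, while *Rhox13* kept its call in each fit. *Rhox4c* lost it without control sample 2 or 3 or IUHG sample 1 or 2, and *Rhox2f* without control sample 1 or 3 or any 1 of the IUHG samples (adjusted p up to 0.126 and 0.19).

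*Rhox6*, *Rhox9* and *Rhox13* were also higher in female than in male control PGCs at E13.5, by 3.62, 3.38 and 3.72 on the log2 scale. The part of sex makeup in their rise was not tested. The X chromosome as a whole held 14 genes that rose and 2 that fell among 520 tested, with a median log2 change of 0.15, beside 107 and 92 among 13207 autosomal genes with a median of 0.03. Another X-linked gene near the cluster, *Gm9* (chrX:36473001-36474694), chosen after its values were seen, went from 59.4, 64.3 and 59.4 TPM to 109, 117 and 127 TPM (log2 change 0.93, adjusted p = 0.0029).

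The promoters of *Rhox13* and *Rhox4c* are shown because both genes rose and *Rhox* genes are known to be kept silent in many tissues by DNA methylation, which acts on CG pairs. The sequences are RefSeq's on GRCm38.p6, from 250 bases before to 50 after the start of the gene, with each CG in capitals.
Rhox13, chrX:38120590-38120889, plus strand: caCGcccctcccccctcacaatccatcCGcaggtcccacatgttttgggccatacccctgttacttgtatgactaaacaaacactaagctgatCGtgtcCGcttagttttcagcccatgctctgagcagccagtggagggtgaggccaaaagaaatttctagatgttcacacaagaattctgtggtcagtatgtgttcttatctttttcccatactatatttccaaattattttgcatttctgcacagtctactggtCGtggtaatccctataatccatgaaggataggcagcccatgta
Rhox4c, chrX:37480087-37480386, plus strand: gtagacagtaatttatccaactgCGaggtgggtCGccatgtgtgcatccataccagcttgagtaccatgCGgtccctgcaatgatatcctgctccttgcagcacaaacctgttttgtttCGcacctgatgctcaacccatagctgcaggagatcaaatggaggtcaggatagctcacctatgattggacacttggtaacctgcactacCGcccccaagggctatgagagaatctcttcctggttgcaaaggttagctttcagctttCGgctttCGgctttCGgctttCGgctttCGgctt
The *Rhox13* window held 5 CG pairs and the *Rhox4c* window 10. Over 32851 windows of the same length from 27025 genes the median was 7 and the quartiles 3 and 20, and 94.6% held at least 1 CG. The 28 *Rhox* windows had a median of 7 and a range of 0 to 12. Windows of genes tested at E12.5 had a median of 21, those of genes that rose 11 (113 windows of 79 genes) and those of genes that fell 12 (72 windows of 52 genes). Of the 217 called genes 131 had a window in the table. Methylation itself was not analysed here.

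Among 22 listed genes of germ cell identity 19 were tested, 5 rose (26.3%) and 1 fell (5.26%), beside 0.879% and 0.697% of all tested genes. Their median log2 change was 0.19, beside 0.04 over all tested genes. The 5 include *Rhox6* and *Rhox9*. *Tfap2c*, a transcription factor of PGC specification, had 64.5, 63.3 and 59.8 TPM in control and 97.7, 91.3 and 94.8 TPM in IUHG samples and rose by 0.59 ± 0.09 (limma adjusted p = 0.017). *Alpl*, the alkaline phosphatase long used to stain PGCs, went from 107, 80.1 and 103 TPM to 153, 142 and 163 TPM (log2 change 0.66, adjusted p = 0.032). *Tdrd12*, a Tudor protein of the piRNA pathway, went from 98.9, 116 and 121 TPM to 204, 148 and 184 TPM (log2 change 0.66, adjusted p = 0.045). *Ddx4*, the helicase *Vasa* that marks germ cells once in the gonad, had 325, 297 and 323 TPM in control and 236, 223 and 240.1 TPM in IUHG samples and fell by 0.43 (adjusted p = 0.045). None of the 4 groups of values overlapped between control and IUHG. The same held for all 217 called genes and for 22.4% of all tested genes.
*Kit*, the receptor that keeps PGCs alive, had a mean of 49.9 ± 3.34 TPM in the control and 60.9 ± 5.08 TPM in the IUHG group, and *Dazl* and *Dppa3* differed by -0.24 and -0.18 (adjusted p of 0.25 to 0.45). The calls of *Alpl* and *Ddx4* were each lost on leaving out any 1 of the control samples or IUHG sample 1 or 2, and those of *Tfap2c* and *Tdrd12* on leaving out any 1 of the control samples or IUHG sample 1, with adjusted p of up to 0.113 to 0.205.

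Genes of pluripotency held a single call. Of 30 listed genes 28 were tested, none rose and 1 fell (3.57%), beside 0.879% and 0.697% of all tested genes. A higher mean in IUHG was seen in 21 of the 28 (median log2 change 0.18), beside 55.8% of all tested genes. *Nanog*, a core factor of pluripotency, had 85.0, 75.3 and 85.0 TPM in control and 115, 101 and 105 TPM in IUHG samples, groups that did not overlap but differed by only 0.39 (limma adjusted p = 0.1). *Pou5f1*, which encodes OCT4 and whose promoter drives the sorted EGFP, had 193, 148 and 186 TPM in control and 190.1, 188 and 295 TPM in IUHG samples, which overlapped. *Sox2* had means of 44.2 ± 4.35 and 54.1 ± 12.7 TPM and *Sall4* of 129 ± 2.59 and 151 ± 3.40 TPM, neither past the test. The member that fell was *Myc*, a driver of growth and division, from 6.51, 8.29 and 10.5 TPM to 3.35, 2.13 and 2.29 TPM (log2 change -1.39, adjusted p = 0.018). Its call was lost without control sample 2 or 3 or IUHG sample 2 (adjusted p up to 0.106).

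The pluripotency list of the study had 61 genes, of which 52 were tested, 3 rose and 3 fell (5.77% each), with a median of 0.16. Over all tested genes 0.879% rose and 0.697% fell. The study chose that list on these samples among others, so the count is not independent evidence of a direction. *Phf19*, a Polycomb partner, rose from 35.0, 34.0 and 32.5 TPM to 49.2, 51.0 and 66.7 TPM (log2 change 0.69, limma adjusted p = 0.035), beside *Tfap2c* and *Gata2*. *Hesx1*, a homeobox repressor known from the anterior neural plate and the pituitary, fell from 56.9, 63.9 and 54.3 TPM to 20.4, 15.3 and 15.1 TPM. Its log2 change of -1.74 ± 0.14 (adjusted p = 6.9e-04) was the largest of the list among genes that passed, and it held in each fit without a library. *Phf19* lost its call on leaving out any 1 of the control samples or IUHG sample 1 or 2 (adjusted p up to 0.155). *Otx2*, a homeobox factor whose loss favours PGC fate, was chosen after its values were seen. It fell from 16.1, 14.6 and 15.0 TPM to 8.28, 8.68 and 8.29 TPM (log2 change -0.78, adjusted p = 0.024), lost on leaving out any 1 of the control samples or IUHG sample 1 or 2 (adjusted p up to 0.115).

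Genes of the male course of germ cells were lower in IUHG for the most part, and 1 of them passed. Of 13 listed genes 11 were tested, and 9 of these had a lower mean (median log2 change -0.25), beside 6089 of all 13770 tested genes. *Lefty1*, an inhibitor that NODAL signalling induces, had 157, 158 and 159 TPM in control and 103, 80.6 and 101 TPM in IUHG samples and fell by 0.74 ± 0.11 (limma adjusted p = 0.014). Its control samples were nearly equal and all 3 IUHG samples lay far below them. *Tdgf1*, the NODAL co-receptor, differed by -0.47 without overlap of the groups (adjusted p = 0.073, and 0.034 with FPKM). *Nanos2*, which directs male germ cell fate, stayed under 1 TPM in all 6 libraries. At E13.5 *Lefty1* was lower in female than in male control PGCs by 6.81 on the log2 scale and *Tdgf1* by 4.05, and Y-linked levels were lower in the IUHG samples, as given above. The part of sex makeup here was not tested. The call of *Lefty1* was lost on leaving out any 1 of the control samples (adjusted p up to 0.0955). *Dll3*, a NOTCH ligand, *Tgif1*, a repressor of TGF-β signalling, and *Tdrd5*, a Tudor protein of male germ cells, were named after their values were seen and fell by 0.95, 0.76 and 0.73. Their calls were lost without 4, 2 and 4 of the 6 libraries (adjusted p up to 0.117).

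BMP signals reach germ cells as ligands from their surroundings, bind receptors that phosphorylate SMAD proteins and induce targets such as the *Id* genes. At E12.5 calls fell on 1 of 3 tested ligands and on 4 of 10 tested targets, of which 3 rose and 1 fell. Over all tested genes 0.879% rose and 0.697% fell. Of 9 listed ligands 3 were tested and 1 fell, *Bmp4*, from 13.3, 12.8 and 13.8 TPM to 5.29, 7.58 and 7.55 TPM (log2 change -0.88, limma adjusted p = 0.035). None of 7 tested receptors and SMADs and none of 8 tested inhibitors were called, with medians of 0.12 and 0.08. *Smad4*, the partner of all receptor SMADs, had means of 59.1 ± 0.192 and 55.3 ± 4.00 TPM.

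Among the targets, *Id1*, an inhibitor of bHLH factors, had 61.0, 55.4 and 56.1 TPM in control and 96.9, 102 and 146 TPM in IUHG samples and rose by 0.96 ± 0.15 (limma adjusted p = 0.017). *Msx2*, a homeobox target in female germ cells, went from 18.3, 13.6 and 13.6 TPM to 33.9, 25.3 and 32.9 TPM (log2 change 0.97, adjusted p = 0.022). *Gata2*, a zinc finger factor, went from 29.5, 19.2 and 23.1 TPM to 40.8, 37.96 and 42.0 TPM (log2 change 0.75, adjusted p = 0.047). In each of these 3 genes the lowest IUHG sample lay above the highest control sample, as in every called gene that rose. *Hes1*, a target that NOTCH also induces, fell from 17.4, 19.0 and 19.2 TPM to 8.17, 7.72 and 11.7 TPM (log2 change -0.96, adjusted p = 0.027). *Id2*, *Id3* and *Zglp1*, the last a regulator of the oogenic programme, were higher by 0.64, 0.52 and 0.52 without passing (adjusted p of 0.073 to 0.15). The 10 targets had a median log2 change of 0.54 with 8 higher in IUHG, beside 55.8% of all tested genes. The summed level of the list was 636 to 683 TPM in control and 835 to 1151 TPM in IUHG samples. *Id1*, *Msx2* and *Gata2* were higher in female than in male control PGCs at E13.5 by 4.55, 4.90 and 5.72 on the log2 scale, and *Hes1* was lower by 2.33. The part of sex makeup was not tested. No call of these genes and *Bmp4* held in all fits without a library: *Id1* was lost on leaving out any 1 of the control samples, *Msx2* without control sample 2 or 3 or IUHG sample 1, *Gata2* without control sample 2 or 3 or any 1 of the IUHG samples, and *Hes1* and *Bmp4* on leaving out any 1 of the control samples or IUHG sample 1 or 2 (adjusted p up to 0.106 to 0.186).

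The promoter of *Gata2* is shown as a target with the letters of a GC-rich site that SMAD proteins bind, GGCGCC, in capitals. It is the second of 2 RefSeq starts of the gene on GRCm38.p6.
Gata2, second start, chr6:88198414-88198713, plus strand: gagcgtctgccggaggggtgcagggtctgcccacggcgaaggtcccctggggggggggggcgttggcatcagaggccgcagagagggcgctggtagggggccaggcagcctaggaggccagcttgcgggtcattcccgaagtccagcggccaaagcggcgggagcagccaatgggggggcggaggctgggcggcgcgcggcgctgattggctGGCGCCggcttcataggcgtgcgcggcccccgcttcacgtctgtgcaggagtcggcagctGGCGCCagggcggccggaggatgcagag
The window held 2 copies of GGCGCC, which reads the same on both strands, and the window at the first start held 0. Of all 32851 windows 11.9% held at least 1 copy.

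At E12.5 none of the RA genes was called, and genes of meiotic entry held 1 call in each direction. Of 37 listed genes of meiotic entry 33 were tested, 1 rose and 1 fell (3.03% each), with a median log2 change of -0.02. Over all tested genes 0.879% rose and 0.697% fell. *M1ap*, needed for meiosis in the testis, rose from 37.9, 32.3 and 32.4 TPM to 72.8, 63.6 and 63.5 TPM (log2 change 0.94 ± 0.11, limma adjusted p = 0.0045) and held in each fit without a library. *Tex12*, a protein of the synaptonemal complex, fell from 58.1, 60.3 and 62.9 TPM to 35.6, 38.9 and 41.7 TPM (log2 change -0.63, adjusted p = 0.021) and lost the call on leaving out any 1 of the control samples or IUHG sample 1 or 2 (adjusted p up to 0.116). *Stra8*, which RA induces at the start of meiosis, had 9.31, 16.1 and 11.6 TPM in control and 12.0, 10.5 and 13.1 TPM in IUHG samples, which overlapped (log2 change -0.02, adjusted p = 0.97). *Sycp3*, an axial protein of meiotic chromosomes, differed by -0.21 and *Sycp1* by -0.44 (adjusted p of 0.39 and 0.11). Both called genes were higher in female than in male control PGCs at E13.5, *M1ap* by 5.30 and *Tex12* by 3.82, and the part of sex makeup was not tested. None of 13 tested genes of RA metabolism and response was called. *Crabp1*, an RA-binding protein, had means of 68.4 ± 6.23 and 106 ± 25.8 TPM (adjusted p = 0.11).

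Of 66 genes in the study's meiosis list 55 were tested, 3 rose (5.45%) and 1 fell (1.82%), beside 0.879% and 0.697% of all tested genes. The median log2 change of that list was -0.07. The study chose this list on these samples too, so it is not independent either. Besides *M1ap*, *Msx2* and *Tex12* it held *Tes*, a LIM protein of focal adhesions, which rose from 41.2, 42.8 and 51.9 TPM to 65.5, 69.2 and 79.0 TPM (log2 change 0.65, limma adjusted p = 0.035). *Tes* lost its call on leaving out any 1 of the control samples or IUHG sample 1 or 2 (adjusted p up to 0.139). Of 603 tested genes that were higher at E16.5 than at E13.5 in control PGCs of both sexes 2 rose and 2 fell (0.332% each). Of 538 that were lower 16 rose (2.97%) and 9 fell (1.67%).

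Imprinted genes, expressed from the copy of 1 parent in most tissues and reset in PGCs, held 4 calls. Of 35 listed genes 21 were tested, 3 rose (14.3%) and 1 fell (4.76%), beside 0.879% and 0.697% of all tested genes. The median log2 change of the list was 0.08. *Phlda2* (chr7:143055282-143056278, minus strand), a maternally expressed inhibitor of placental growth, had 302, 335 and 284 TPM in control and 609.6, 699 and 504 TPM in IUHG samples, a rise of 0.97 ± 0.13 (limma adjusted p = 0.0078). *Slc22a18* (chr7:143027473-143053071, plus strand), its neighbour in the same imprinted cluster, went from 9.01, 6.85 and 7.42 TPM to 15.7, 20.3 and 18.2 TPM, a rise of 1.12 ± 0.16 (adjusted p = 0.011). The IUHG mean was 1.97 times the control mean in *Phlda2* and 2.33 times in *Slc22a18*. The groups did not overlap in either gene, as in all 217 called genes. *Impact*, a paternally expressed regulator of translation, rose by 0.89 (adjusted p = 0.024). *Mest*, a paternally expressed hydrolase, fell from 64.1, 55.5 and 54.8 TPM to 27.0, 30.6 and 42.5 TPM (log2 change -0.80, adjusted p = 0.044). *Cdkn1c*, also maternally expressed in the cluster of *Phlda2*, differed by -0.13 (adjusted p = 0.56). At E13.5 female control PGCs were above male ones by 6.55 for *Phlda2* and 3.99 for *Slc22a18* and below them by 2.15 for *Mest*, and the part of sex makeup was not tested. *Phlda2* lost its call without control sample 3 (adjusted p = 0.0698), *Slc22a18* without control sample 2 or 3 or IUHG sample 2 (up to 0.0709), and *Impact* and *Mest* on leaving out any 1 of the control samples or IUHG sample 1 or 2 (up to 0.151).

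The promoters of the neighbours *Phlda2* and *Slc22a18* are shown because the genes rose together and differ in CG pairs, which are in capitals, again from RefSeq on GRCm38.p6.
Phlda2, chr7:143502475-143502774, minus strand: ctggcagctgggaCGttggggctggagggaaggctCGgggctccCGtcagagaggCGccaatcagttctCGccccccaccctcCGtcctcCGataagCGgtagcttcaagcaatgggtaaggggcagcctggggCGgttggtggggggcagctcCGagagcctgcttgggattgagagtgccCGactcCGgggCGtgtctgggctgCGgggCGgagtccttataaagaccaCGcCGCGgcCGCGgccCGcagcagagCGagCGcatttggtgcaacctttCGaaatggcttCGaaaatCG
Slc22a18, chr7:143473539-143473838, plus strand: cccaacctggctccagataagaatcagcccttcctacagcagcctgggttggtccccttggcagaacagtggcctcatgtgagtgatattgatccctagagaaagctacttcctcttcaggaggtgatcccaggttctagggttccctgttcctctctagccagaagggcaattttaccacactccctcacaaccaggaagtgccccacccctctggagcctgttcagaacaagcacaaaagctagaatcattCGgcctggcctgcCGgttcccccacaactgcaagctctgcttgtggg
The *Phlda2* window held 26 CG pairs, above the upper quartile of all windows, and the *Slc22a18* window 2, below the lower quartile. None of 10 tested genes of DNA methylation was called (median 0.17), and *Dnmt1*, the maintenance methyltransferase, had means of 64.0 ± 7.89 and 71.7 ± 2.04 TPM. None of 14 listed repressor genes was called (median -0.0047). They cover the PRC1.6 complex, which holds germline genes silent, and other repressors such as *Trim28* and *Setdb1*.

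Of 40 cell cycle genes, all tested, none rose and 2 fell (5%), beside 0.879% and 0.697% of all tested genes. A higher mean in IUHG was seen in 30 of the 40 (median log2 change 0.11), beside 55.8% of all tested genes. *Cdk2*, the kinase of S phase entry, went from 127, 113 and 125 TPM to 77.1, 64.6 and 70.7 TPM, a fall of 0.78 ± 0.10 on the log2 scale (limma adjusted p = 0.008), and *Ccnd2*, cyclin D2, from 4.42, 3.87 and 3.21 TPM to 1.27, 1.28 and 1.48 TPM (log2 change -1.04, adjusted p = 0.038). *Rgcc*, a regulator of the cell cycle and a DEG, was the only call among 11 tested inhibitors (log2 change 1.63). *Cenpa*, the histone of centromeres, was named after its values were seen and rose by 0.55 (adjusted p = 0.026). *Cdk2* lost its call without control sample 1 or 3, *Ccnd2* on leaving out any 1 of the control samples or IUHG sample 1 or 2, and *Cenpa* on leaving out any 1 of the control samples or IUHG sample 1 (adjusted p of up to 0.0698, 0.134 and 0.131).

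Genes of glucose use and of metabolic stress were mostly without a call in these cells. Of 28 tested genes of glycolysis and glucose uptake 1 rose, *Ldha*, the lactate dehydrogenase subunit that turns pyruvate into lactate, from 87.3, 80.5 and 78.9 TPM to 138, 141 and 152 TPM (log2 change 0.80 ± 0.09, limma adjusted p = 0.0041). It held in each fit without a library, and the list's median was 0.09. None of 27 genes of the TCA cycle and α-ketoglutarate metabolism was called (median 0.01), and none of 13 protein-coding genes of the mitochondrial genome (median -0.12, with 9 of 13 lower in IUHG). *mt-Cytb* had 6138, 6823 and 6647 TPM in control and 5347, 5827 and 4949 TPM in IUHG samples, without overlap (log2 change -0.28, adjusted p = 0.26), and *mt-Co1* was higher, at means of 3299 ± 177 and 3653 ± 93.5 TPM (adjusted p = 0.5). None of 20 antioxidant genes, 18 of ER stress, 24 of the p53 and apoptosis pathways, 19 of insulin, mTOR and AMPK signalling and 22 of cholesterol synthesis were called. Their medians were 0.10, -0.12, 0.13, 0.12 and -0.25. *Trp53* had means of 497 ± 12.0 and 510.3 ± 11.9 TPM, and *Sod1*, a superoxide dismutase, of 1576 ± 34.8 and 1611 ± 266 TPM. Among 15 tested immediate early genes only *Myc* was called, and among 6 tested genes of MHC class I none.

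*Mgst2*, *Mgst3* and *Gstp1* encode glutathione transferases, and *Mgst3*, *Gstp1* and *Apoe* were named after their values were seen. *Mgst2* was a DEG that fell, from 26.2, 29.3 and 22.8 TPM to 11.6, 10.2 and 7.45 TPM, *Mgst3* fell by 0.59 and *Gstp1* rose by 0.66 (limma adjusted p of 0.022 to 0.023 for the last 2). *Apoe*, the lipid carrier, rose from 87.3, 78.1 and 78.2 TPM to 118, 127 and 186 TPM (log2 change 0.79, adjusted p = 0.045). *Mgst2* lost its call without control sample 2 (adjusted p = 0.053), *Gstp1* on leaving out any 1 of the control samples or IUHG sample 2, and *Mgst3* and *Apoe* on leaving out any 1 of the control samples or IUHG sample 1 or 2 (up to 0.189).

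The other protein-coding DEGs that rose were led by *Fabp5*, a fatty acid binding protein, with 6.92, 5.36 and 5.30 TPM in control and 24.8, 27.9 and 18.7 TPM in IUHG samples (log2 change 1.85 ± 0.18, limma adjusted p = 0.0018). *Porcn*, the acyltransferase that WNT proteins need for secretion, rose from 26.2, 23.4 and 24.6 TPM to 72.8, 59.1 and 76.7 TPM (log2 change 1.45, adjusted p = 8.9e-04). *Acot1*, a thioesterase of long-chain acyl-CoA, rose from 31.5, 33.0 and 32.8 TPM to 71.4, 69.5 and 72.7 TPM. *Cd59a*, an inhibitor of the complement attack complex, went from 16.51, 13.9 and 14.1 TPM to 40.2, 39.4 and 36.1 TPM. *Lrrc34*, *Nrsn1* and the zinc finger gene *Zfp985* rose by 1.05, 1.17 and 1.01. The female minus male log2 difference in control PGCs at E13.5 was 3.51 for *Porcn*, which is X-linked, 3.33 for *Lrrc34*, 1.44 for *Nrsn1* and 1.08 for *Zfp985*. It was -0.10 for *Fabp5*, -0.28 for *Acot1* and -0.41 for *Cd59a*. All 7 held their call at an adjusted p under 0.05 in each fit without a library.

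Of the protein-coding DEGs that fell, *Khdc3*, a member of the maternal complex under the surface of the egg, had 48.6, 55.7 and 47.9 TPM in control and 14.6, 9.23 and 14.3 TPM in IUHG samples (log2 change -1.94 ± 0.17, limma adjusted p = 0.0011). *Dgka*, a diacylglycerol kinase, went from 27.5, 22.6 and 26.8 TPM to 6.44, 8.42 and 6.23 TPM, and *Ccn1*, a secreted matrix protein, from 22.9, 22.1 and 29.2 TPM to 6.45, 6.61 and 7.55 TPM (log2 changes -1.73 and -1.70). *Trim5*, a restriction factor for retroviruses, fell from 2.79, 3.67 and 3.34 TPM to 0.268, 0.0409 and 0.154 TPM. In these 4 genes the highest IUHG value lay far below the lowest control value. Every called gene that fell had its IUHG values below its control values. The log2 level in female minus that in male control PGCs at E13.5 was -5.36 for *Khdc3*, -4.91 for *Hesx1*, -3.28 for *Dgka* and -5.44 for *Mgst2*, whereas it was -0.11 for *Ccn1*.

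**Figure D2:**
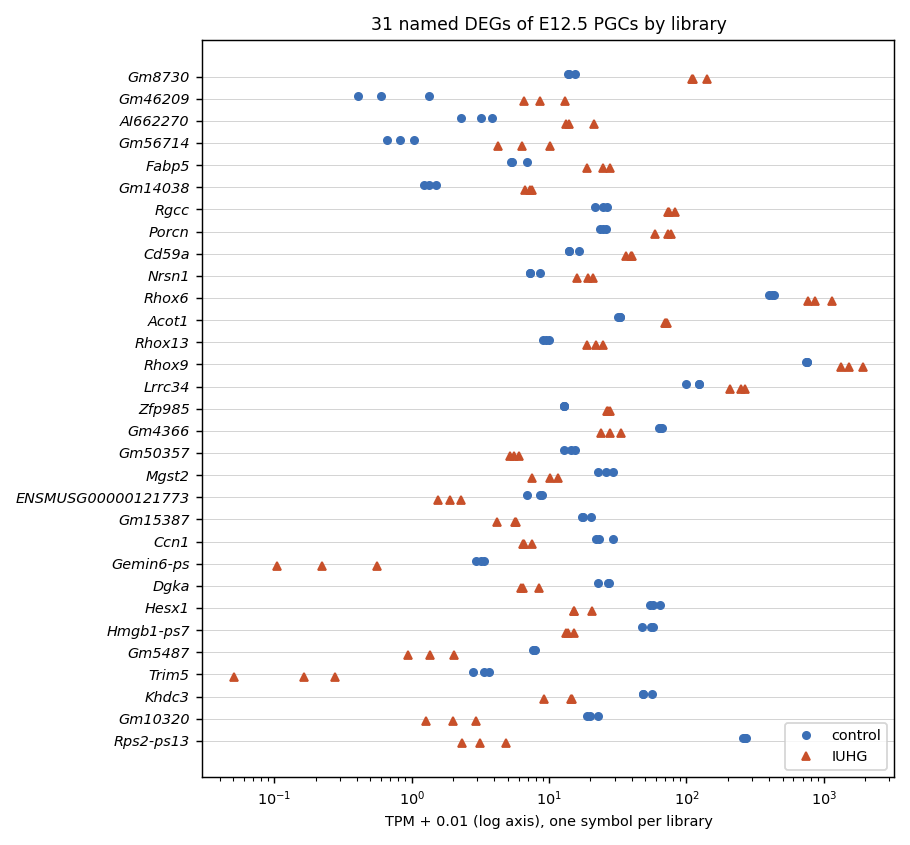
TPM + 0.01 (logarithmic horizontal axis) of the 31 named DEGs (rows) in each of the 3 control (circles) and 3 IUHG (triangles) libraries. The groups do not overlap in any row, as in all 217 called genes. The widest gap is that of *Rps2-ps13*, from 258 to 272 TPM in control to 2.32 to 4.82 TPM in IUHG samples.

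Pseudogenes made up 998 of the tested genes (7.25%) and 13 of the 34 DEGs (38.2%), 4 that rose and 9 that fell. At an adjusted p under 0.05, 9 rose and 23 fell. Pseudogenes that are processed copies can share reads with the parent gene, so their values are uncertain. *Rps2-ps13* (chrX:51987465-51988346, plus strand) showed a pattern of presence and absence across the 10 PGC groups of the series. In 3 groups, E12.5 IUHG, E13.5 male control and E16.5 female IUHG, all libraries were at or under 4.82 TPM, and in the other 7 groups all were at or over 75.1 TPM. Its parent *Rps2*, a protein of the small ribosomal subunit, had 1264, 1229.7 and 1189 TPM in control and 1490.4, 1632 and 2241 TPM in IUHG samples at E12.5 (limma adjusted p = 0.12). The parent's mean was 1228 TPM in the control and 1788 TPM in the IUHG group, and the copy's 266 and 3.43 TPM.

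For *Rnps1*, an RNA-binding protein of the exon junction, and its copy *Rnps1-ps*, both chosen after their values were seen, parent and copy moved in opposite directions. *Rnps1* had 291, 269.7 and 281 TPM in control and 388, 393 and 389.6 TPM in IUHG samples and rose by 0.47. *Rnps1-ps* had 219, 205 and 222 TPM in control and 154, 151 and 164 TPM in IUHG samples and fell by 0.46 (limma adjusted p of 0.026 and 0.035). Both calls were lost on leaving out any 1 of the control samples or IUHG sample 1 or 2 (adjusted p up to 0.183). Other copies without such a counterpart were *Hmgb1-ps7*, whose parent *Hmgb1* had means of 912 ± 32.1 and 889 ± 13.8 TPM, and *Gemin6-ps*, which went from 2.94, 3.18 and 3.37 TPM to 0.549, 0.0951 and 0.214 TPM beside *Gemin6* at 119.9 ± 9.39 and 112 ± 7.83 TPM. *Rps3a3* and *Rps18-ps6*, also chosen after their values were seen, fell by 0.90 and 1.27, the latter lost on leaving out any 1 of the control samples (adjusted p up to 0.0662), and *Gemin6-ps* was lost without control sample 2 or 3 (up to 0.0661). None of 79 ribosomal protein genes themselves was called. They had a median log2 change of -0.26, with 56 lower in IUHG, and summed to 105741 to 114180.0 TPM in control and 84902 to 114350.0 TPM in IUHG samples, which overlapped. Of 306 tested genes with a symbol ending in -ps or annotated as a ribosomal protein pseudogene, 3 rose and 7 fell (median -0.11).

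*Gm46209*, *Gm8730* and *Gm14038*, pseudogenes that rose, stood at 0.772 ± 0.499, 14.4 ± 1.02 and 1.34 ± 0.13 TPM in control and 9.38 ± 3.25, 121 ± 17.0 and 7.10 ± 0.438 TPM in IUHG samples. *Gm10320*, which fell, went from 19.7, 22.6 and 18.8 TPM to 2.93, 1.98 and 1.26 TPM, and *Gm5487* from 7.59, 7.74 and 7.85 TPM to 0.937, 2.03 and 1.35 TPM. These have no parent gene in their symbols. *AI662270*, a long noncoding RNA, rose from 3.82, 2.27 and 3.17 TPM to 14.0, 13.2 and 21.2 TPM (log2 change 2.06, limma adjusted p = 0.0034). *Gm56714*, not matched to the annotation, rose by 2.05 and lost the call without control sample 2 or 3 (adjusted p up to 0.0685).

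**Figure D3:**
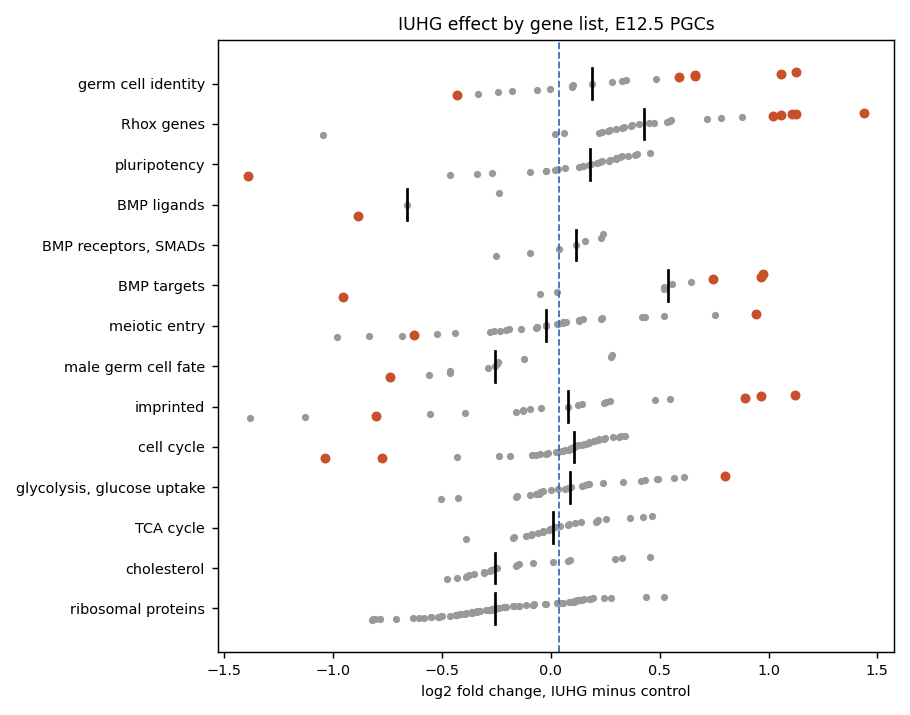
Log2 fold change (IUHG minus control, horizontal axis) of the tested members of each gene list (rows), with the dashed line at the median of all 13770 genes, 0.04. The BMP targets have a median of 0.54 and the *Rhox* genes of 0.43, while glycolysis and glucose uptake has 0.09 and the TCA cycle 0.01.

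Markers of the somatic cells of the gonad were low in both groups, with a lower summed level in IUHG samples for Sertoli, interstitial and coelomic markers. Of 8 Sertoli cell markers 6 were tested and none was called, with a median log2 change of -0.89 and a summed level of 55.2 to 64.1 TPM in control and 45.0 to 54.3 TPM in IUHG samples. *Sox9*, the defining factor of Sertoli cells, had 1.41, 0.569 and 1.23 TPM in control and 0.405, 0 and 0.0406 TPM in IUHG samples, and *Cst9* had 9.62, 12.7 and 10.3 TPM in control and 5.21, 1.61 and 0 TPM in IUHG samples (limma adjusted p of 0.18 and 0.074). *Aard* made up most of the sum and differed by 0.05. The summed level of 10 interstitial markers was 4.00 to 7.54 TPM in control and 1.24 to 1.57 TPM in IUHG samples, and that of 6 coelomic epithelium markers 9.08 to 12.7 and 5.61 to 6.37 TPM. None of the tested members, 2 and 3, was called. *Dcn*, a matrix protein of fibroblasts chosen after its values were seen, fell from 3.92, 3.13 and 1.78 TPM to 0, 0.077 and 0.393 TPM (adjusted p = 0.018), lost without control sample 1 or 2 or IUHG sample 1 or 2 (up to 0.0912).
Pregranulosa markers summed to 4.52 to 6.41 TPM in control and 2.07 to 5.56 TPM in IUHG samples, with 3 of 8 tested, *Foxl2* at or near 0 in all libraries and none called. Markers shared by gonadal soma summed to 27.7 to 41.3 and 20.3 to 36.2 TPM, and those of macrophages to 3.86 to 7.84 and 4.30 to 7.62 TPM. They had 3 and 2 tested members and no call. The 8 endothelial markers summed to 138 to 147 TPM in control and 162 to 180.1 TPM in IUHG samples, most of it *Pecam1*, which PGCs also express, and none of the 3 tested members was called. The part of somatic cells in *Bmp4*, *Ccn1*, *Hes1* and other genes that fell was not tested.

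Because the sex of the pooled fetuses is not given, the E12.5 changes were read beside the difference between female and male control PGCs at E13.5, which are other libraries. There 3213 of 15718 tested genes were higher in female cells (20.4%) and 1470 lower (9.35%) at the DEG thresholds. Of all genes tested at E12.5, 18.8% were in the first set and 8.96% in the second. Of the 121 genes that rose in IUHG samples, 53 (43.8%) were higher in female cells, 9 (7.44%) in male cells and 59 in neither. Of the 96 that fell, 14 (14.6%) were higher in female cells, 41 (42.7%) in male cells and 41 in neither. Among DEGs that rose these counts were 9, 1 and 7, and among those that fell 5, 6 and 6. The 5 include *Rps2-ps13* and *Hmgb1-ps7*. Over the 205 called genes that both comparisons tested, the E12.5 change and the sex difference had a Spearman's rho of 0.44 and over all 13238 genes of 0.13, given as descriptions of genes in 12 libraries.

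Of 2593 tested genes higher in female cells 2.04% rose and 0.54% fell (median log2 change 0.08), and of 1234 higher in male cells 0.729% rose and 3.32% fell (median -0.06), beside 0.879% and 0.697% of all genes tested. The median sex difference itself was 0.94 on the X chromosome and 0.26 on autosomes. Fitted without the genes of either set, 11 genes were DEGs and 42 passed an adjusted p under 0.05, and 11 of the 13 original DEGs that stayed in the table were called again. Among the DEGs, *Gm8730*, *Gm46209*, *Acot1*, *Cd59a*, *Fabp5*, *Ccn1*, *Gm4366*, *Gm5487*, *Gemin6-ps* and *Gm4322* had an absolute sex difference under 1, and *Gm14038*, *AI662270* and *Trim5* were not tested for one. A different mix of the sexes in the pools and a change of expression within cells of a sex cannot be told apart from these libraries.

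**Figure D4:**
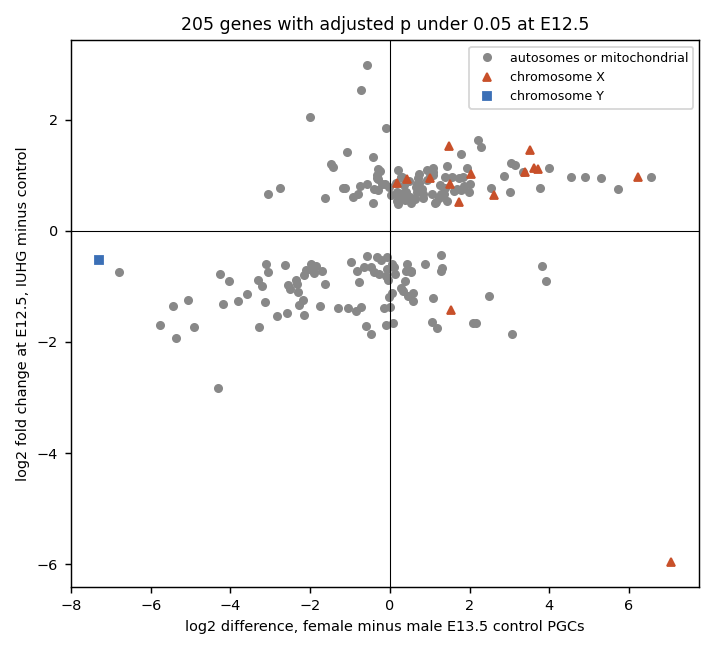
Log2 fold change at E12.5 (IUHG minus control, vertical axis) of the 205 called genes against the log2 difference between female and male control PGCs at E13.5 (horizontal axis), with X-linked, Y-linked and other genes marked. Genes such as *Rhox6* (1.12 and 3.62) lie at the upper right and *Lefty1* (-0.74 and -6.81) at the lower left, while *Rps2-ps13* (-5.95 and 7.05) lies at the lower right.

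At E13.5, where the sexes were separated, the IUHG comparison called 176 of 16539 genes higher (1.06%) and 329 lower (1.99%) in female PGCs, and 2206 of 14473 higher (15.2%) and 2607 lower (18%) in male PGCs, at an adjusted p under 0.05 in limma. These use other control libraries. Of the 17 DEGs that rose at E12.5, 3 were higher and 2 lower among the female calls and 13 were higher and 3 lower among the male calls. Of the 17 that fell, none was called in female PGCs, and among the 16 tested in male PGCs 9 were lower and 3 higher. The difference between the E12.5 and E13.5 effects itself passed an adjusted p under 0.01 in 120 of 17063 genes for female PGCs (0.703%) and in 414 of 15180 for male PGCs (2.73%). Among the 34 DEGs it passed in 10 and 18, but these genes were chosen for their E12.5 effect, which favours a difference.

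*Rhox6* and *Phlda2* also rose in male PGCs at E13.5, and in female PGCs *Phlda2* rose (limma adjusted p = 0.022) and *Rhox6* did not pass (adjusted p = 0.21). *Rhox6* had 37.2 to 43.6 TPM in E13.5 male control and 372 to 383 TPM in E13.5 male IUHG libraries, beside 478 to 553 and 483 to 986 TPM in the female ones. *Phlda2* had 3.97 to 7.23 TPM in male control and 486 to 521 TPM in male IUHG libraries, against 580 to 679 and 997.5 to 1552 TPM in female ones. Among the E12.5 and E13.5 groups the male control group alone stood low in both genes. The E12.5 effect was smaller than that in E13.5 male PGCs by 2.07 and 5.29 on the log2 scale (interaction in limma, adjusted p under 0.01). *Hesx1* and *Khdc3* also fell in male PGCs at E13.5, *Hesx1* from 159 to 164 TPM to 78.7 to 85.6 TPM and *Khdc3* from 82.3 to 87.4 TPM to 44.7 to 50.9 TPM. In female PGCs neither passed, with *Hesx1* at means of 4.52 ± 1.49 and 2.49 ± 1.68 TPM and *Khdc3* at 1.16 ± 0.671 and 2.66 ± 1.55 TPM (adjusted p = 0.31 for both). In male PGCs *Lefty1*, with 284 to 316 and 302 to 319 TPM, did not pass (adjusted p = 0.49). The Y-linked sum in E13.5 male PGCs was 167 ± 16.0 TPM in the control and 118 ± 1.79 TPM in the IUHG group. In E16.5 male PGCs it was 86.3 ± 11.0 and 118 ± 3.78 TPM.

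**Figure D5:**
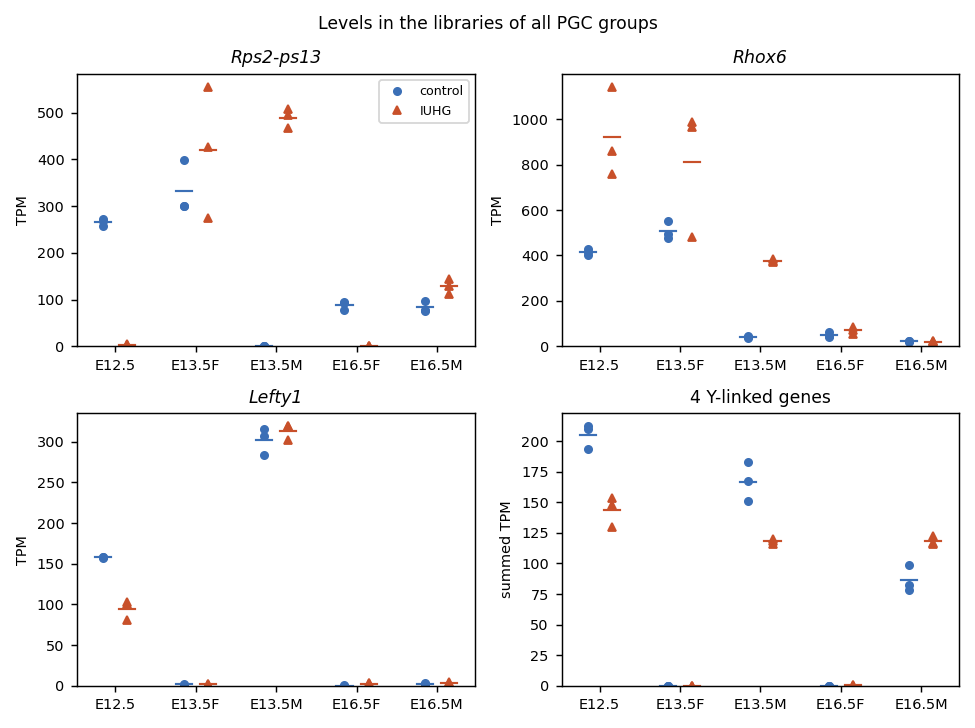
TPM (vertical axes, from 0; summed TPM for the 4 Y-linked genes) in each library of the control and IUHG groups of PGCs (horizontal axes, by age from E12.5 to E16.5; F female, M male), with a line at each group mean of 3 libraries. *Rhox6* is lower in E13.5 male control PGCs (at most 43.6 TPM) than in the other E12.5 and E13.5 groups. *Lefty1* is highest in E13.5 male PGCs, at 284 to 316 TPM in control and 302 to 319 TPM in IUHG libraries. *Rps2-ps13* is near 0 in 3 of the 10 groups.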

How the data were processed

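Sorted PGCs of E12.5 fetuses were analysed in 3 control and 3 IUHG libraries, and the groups were taken from the sample labels. Per the methods and labels, the authors trimmed the reads (Trim Galore), aligned them with STAR (genome mm39), retained reads with a unique position and called genes from counts (featureCounts, DESeq2), and those counts were not used here. The deposited tables are StringTie output with TPM, which the authors obtained after scaling for length and to a fixed sum per library. FPKM, scaled for length and mapped fragments, and coverage, the unscaled mean depth per base, were deposited beside it. Aligned bases were computed as coverage over FPKM. Counting error per gene is not known.

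Rows were summed per gene ID (14 to 21 rows beyond the IDs per library). Values were taken as log2(TPM + 1), which understates changes of low genes, and genes with a mean of at least 1 TPM in either group entered a two-sided test of the condition alone, by limma 3.58.1 (R 4.3.3; lmFit, and eBayes with trend), with Benjamini-Hochberg adjustment over all of them. A DEG needed a fold over 2 at an adjusted p under 0.01. E13.5 groups entered interaction fits. Python 3.11.15, numpy 2.4.6, pandas 2.3.3 and matplotlib 3.10.9 did the other steps, and the fits were tested on simulated data.

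The comparison, its 36 lists and the alternatives were chosen with earlier results of these data known. Named genes are DEGs without overlap between groups (up to 15 in each direction by p), called list members or otherwise the 2 most abundant members, and genes the paper names, and any other gene was picked once its values were known, also where the text does not repeat it (*Dazl*, *Dppa3*, *Kit*, *Pou5f1*, *Tdgf1*, *Id2*, *Id3*, *Zglp1*, *Rhox4c*, *Rhox2f*, *Rhox5*, *Rhox10*, *Tpm3-rs7*, *Cdkn1c*, *Gm4322*). Of the listed genes 2 had no match, and the result of 1 is not reported here. Biotypes were matched by symbol for 92.1% of tested genes. Positions are those of the tables, for which methods name mm39. Gonad libraries were not used. The fit was repeated on FPKM, with a pseudocount of 0.1, with no filter or one of 5 TPM, after quantile or median-of-ratios scaling, on all PGC groups at once, with the replicate number as a block, with no variance trend, at an unadjusted threshold, without sex-dependent genes and without each library. Fits without the sex chromosomes and without pseudogenes were added after seeing the data.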

Additional observations from a re-analysis of the deposited data

Results flagged for a closer look

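For 20 named genes the IUHG effect at E12.5 differed from that in E13.5 female PGCs, and for 38 from that in E13.5 male PGCs, each by the interaction term in limma at an adjusted p under 0.01. Over all genes tested for it the difference passed in 0.703% for female and 2.73% for male PGCs. Values below are the E12.5 effect minus the E13.5 effect on the log2 scale, from 6 libraries at each age. They cover named genes only, many of them named for their change in the same E12.5 libraries, which favours a difference from E13.5. No explanation was weighed.

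Against female PGCs the E12.5 effect was more positive, by these differences, for *Rhox13* 2.81, *Tex12* 1.34, *M1ap* 2.87, *Id1* 1.70, *Dmrtc2* 3.59, *Stra8* 2.09 and *Sycp3* 1.89. *Stra8*, *Sycp3* and *Dmrtc2*, genes of meiosis or of its entry, did not pass the test at E12.5. It was more negative for *Khdc3* -2.68, *Trim5* -3.63, *Mgst2* -1.95, *Trp53* -1.51 and *Otx2* -1.82. In E13.5 female control PGCs *Khdc3*, *Trim5*, *Mgst2* and *Otx2* had means of 1.16, 0.141, 0.498 and 0.133 TPM. Their means in E13.5 female IUHG PGCs were higher, at 2.66, 2.99, 1.24 and 1.32 TPM, without passing (limma adjusted p of 0.055 to 0.31). At the control levels a fall in female PGCs could hardly be measured. The part of the low levels and of these higher means in the differences was not tested. For genes annotated as pseudogenes the differences were *Gm8730* 2.57, *Gm46209* 5.71, *Rps2-ps13* -6.24, *Gm10320* -3.88, *Gm50357* -1.97, *Gemin6-ps* -2.94, *Rnps1-ps* -1.11 and *Tpm3-rs7* -2.96.

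Against male PGCs the E12.5 effect was more positive for *Acot1* 0.82, *Alpl* 0.85, *Impact* 0.90, *Nanos2* 2.07, *Rps2* 0.89 and *Gm56714* 3.43. It was more negative for *Rhox9* -2.05, *Rhox6* -2.07, *Hesx1* -0.79, *Khdc3* -1.12, *Ccn1* -1.37, *Dgka* -0.91, *Trim5* -2.14, *ENSMUSG00000121773* -2.31, *Tfap2c* -0.60, *Myc* -1.47, *Lefty1* -0.79, *Msx2* -1.96, *Gata2* -3.21, *Cdk2* -0.73, *Ccnd2* -0.98, *Trp53* -0.48, *Phlda2* -5.29, *Phf19* -1.13, *Stra8* -3.65, *Gm9* -0.71, *Dll3* -0.99, *Tdgf1* -1.08 and *Mgst3* -0.68. For annotated pseudogenes the differences were *Gm8730* 3.77, *Gm14038* 1.60, *Gm46209* 3.92, *Rps2-ps13* -13.60, *Hmgb1-ps7* -4.19, *Gm15387* -1.95, *Gm4366* -1.33, *Gm5487* -1.86 and *Rps3a3* -1.03. *Nanos2* was under 1 TPM in each E12.5 library and not tested there. Its means at E13.5 were 30.5 TPM in male control and 4.19 TPM in male IUHG libraries. The male IUHG libraries of E13.5 also had a lower summed Y-linked level than their controls (118 against 167 TPM), and its part in these differences was not tested.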

How the results depend on the processing

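Starting from 34 DEGs, the count was 2 without a filter on low TPM, 64 with all PGC groups in one fit, 17 with the replicate block, 14 without a variance trend, 11 without sex-dependent genes, 20 without pseudogenes (an alternative chosen after seeing the data), 155 at an unadjusted p under 0.01, and 6 to 34 without 1 library. The 217 genes at an adjusted p under 0.05 became 22 without a filter, 135 with the replicate block, 117 without a variance trend, 42 without sex-dependent genes and 37 to 291 without 1 library. The difference from E13.5 female PGCs (120 genes) became 205 with FPKM, 61 without a filter, 50 with the replicate block and 46 to 337 without 1 library, and that from male PGCs (414 genes) 190 without a filter, 225 with the replicate block and 230 to 612 without 1 library. The lowest female count came without E12.5 control sample 3 and the highest without E13.5 female IUHG sample 3, and the lowest male count without E13.5 male IUHG sample 2. The cause of these shifts was not tested, other than that fewer libraries or genes enter some fits. The other settings run left each count within 1.5 times, including 30 DEGs with FPKM, 34 with median-of-ratios scaling and 29 without the sex chromosomes (also chosen after seeing the data), and no named gene that was called reversed its direction. The balance of the 217 calls, 121 up and 96 down, turned to 109 and 131 with FPKM, 110 and 123 with median-of-ratios scaling, 112 and 115 with quantile normalization, 10 and 12 without a filter, 18 and 19 without control sample 3, and 39 and 40, 43 and 62, and 139 and 152 without IUHG samples 1, 2 and 3. Of the 34 DEGs, 29 were DEGs again with FPKM, 32 with median-of-ratios scaling, 31 with a pseudocount of 0.1 and 16 with the replicate block. The summed Y-linked level differed by -30.4 with FPKM values, by -65.5 TPM with median-of-ratios scaling and by -67.5 to -54.7 TPM without 1 library. The replicate numbers were not taken as pairs. Deviations of same-numbered samples correlated at -0.04, 0.13 and 0.05 over genes, and 2 of 3 controls correlated best with their own number. With 3 libraries a group, small changes of genes near 1 TPM were not detectable, and depth per gene is unknown.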
